A study of Rattus norvegicus with 4 samples.

Results

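Transcripts of the glutathione, peroxiredoxin and thioredoxin systems were measured in 4 mammary cancers of irradiated rats. The genes were taken by name: cytosolic glutathione transferases of the alpha, mu, pi, omega, theta and zeta classes and the kappa enzyme, the glutathione peroxidases, the peroxiredoxins, every gene whose symbol starts with Txn, and Gclc, Gclm, Gss, Gsr, Sod1, Sod2, Sod3, Cat and Nqo1. This gave 57 of the 14217 genes that the arrays name, on 64 probe sets annotated to a single gene. The rule uses gene symbols only.

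All 4 cancers form 1 group, carbon_ion_cancer, from female Sprague-Dawley rats, an outbred stock. The rats were exposed once, over the whole body, to 0.5 Gy of carbon ions (290 MeV/u, a spread-out Bragg peak of 6 cm) at an age of 7 weeks, and from 9 weeks they were kept on an AIN-76A diet with 23.5% corn oil. Each tumour was hybridised to 1 array and is called here by its replicate number, tumour 1 to tumour 4. Whether the tumours grew in separate rats is not said in the labels, and unirradiated controls are not analysed here, so every value below describes differences between individual cancers and none measures an effect of radiation or diet.

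Cells remove peroxides and reactive electrophiles with the tripeptide glutathione and the small protein thioredoxin. Glutamate-cysteine ligase (Gclc and Gclm) and glutathione synthetase (Gss) make glutathione, glutathione reductase (Gsr) restores it after oxidation, glutathione peroxidases and peroxiredoxins use glutathione or thioredoxin to reduce peroxides, and glutathione transferases couple it to lipid breakdown products and foreign chemicals. Superoxide dismutases and catalase deal with superoxide and hydrogen peroxide directly, and thioredoxin reductases recharge thioredoxin. The transcription factor NRF2 (gene Nfe2l2), held in check by KEAP1, induces many of these genes through a DNA sequence called the antioxidant response element. Secretory epithelium such as that of the mammary gland folds large amounts of protein for export, and the disulphide bonds formed on the way yield peroxide.

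The core of that element, TGACNNNGC, was looked for on both strands of the promoters that RefSeq gives for assembly GRCr8, from 250 bases before to 50 bases after each start. Promoters were found for 49 of the 57 genes, and 15 of them (30.6%) held the core, against 2414 of 19005 protein-coding genes (12.7%). A match is only a description of letters. Shown here are some of the 15, each 5′ to 3′ on the strand that carries the core, with the core in capitals. The others that held it, not shown, were Gstm7, Prdx4, Prdx5, Sod2, Txndc5, Txndc11, Txndc17 and Txnl4b. Gstm5 holds it at 113 and 53 bases before the start, and the other cores begin 61 (Gstp1), 172 (Gclm), 13 (Gpx2) and 231 (Gstz1) bases before theirs, in the gene's orientation. Those of Gclm, Gpx2 and Gstz1 lie on the opposite strand. Gsta1 and Gsta3, which are neighbours in RefSeq, carry it in nearly the same surroundings, Gsta3 at 17 bases before its start and Gsta1 just after its own, so they are not independent matches.
Gstm5, chr2:198219646-198219734, plus strand: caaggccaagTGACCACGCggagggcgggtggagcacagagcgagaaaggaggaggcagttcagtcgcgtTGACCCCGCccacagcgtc
Gstp1, chr1:210769748-210769776, minus strand: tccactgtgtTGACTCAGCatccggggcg
Gclm, chr2:213031953-213031981, minus strand: tggaagacaaTGACTAAGCagaaaccgca
Gpx2, chr6:101230028-101230056, plus strand: attcccagaaTGACTTAGCgaaaccaggt
Gstz1, chr6:112525365-112525393, minus strand: tacgactcctTGACGGGGCagcggacaag
Gsta1, chr9:31216484-31216512, minus strand: aactcaggcaTGACTTTGCatttttcttc
Gsta3, chr9:31154962-31154990, plus strand: aactcaggcaTGACTTCGCattttttcct

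Of the 57 genes, 48 had a mean no lower than that of the middle probe set on the arrays (7.81 log2, or 208.5 in signal) and are called expressed, as were 9403 genes on the arrays. Levels are log2(signal + 16), on which a step of 1 is 2-fold for bright probe sets and understates the change of dim ones. A gene is said to have a 2-fold range where the highest tumour lay at least 1 log2 above the lowest, and a 4-fold range at 2 log2. With 1 array per tumour there is no replicate of any tumour, so no test was run, and SD is the spread between the 4 cancers. In bulk tumour tissue fewer cells of a type and less RNA per cell cannot be told apart.

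Markers of mammary tissue were present. All 9 luminal epithelial genes and all 5 milk protein genes listed for this check were expressed, as were 8 of 9 basal genes. The 5 liver genes were not. Of 5 skeletal muscle genes 1 was expressed, Myh1, at 12.39 to 12.48 log2. Cell type markers differed between tumours: the summed signal of 9 luminal genes ran from 31528 in tumour 1 to 65529 in tumour 3, and that of 9 macrophage genes from 4371 in tumour 3 to 14913 in tumour 1. The 6 fibroblast genes summed to 11830 in tumour 4 and to between 29348 and 37745 elsewhere, and 3 red blood cell genes to 9115 in tumour 4 and at most 2731 elsewhere. Each array had a mean of about 500 after 2% was trimmed from either end of its values, and median signals were between 201.8 and 221.9.

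The antioxidant genes as a whole varied between the cancers about as much as other genes did, and the glutathione transferases were where most of the variation lay. Of the 48 expressed members, 9 (18.8%) had a 2-fold range, against 12.4% of all expressed genes, and 1 had a 4-fold range, against 2.42%. The median SD was 0.23 log2 (n = 4 tumours per gene) among the members and 0.21 among all expressed genes. Glutathione transferases made up 8 of the 9: of 13 expressed transferases 8 (61.5%) had a 2-fold range, with a median SD of 0.55. Of the 35 other members it was 1, Gpx3, with a median SD of 0.18. Many of the others are bright, and bright probe sets vary less: 7.17% of all genes with a mean of at least 11 log2 had a 2-fold range and 13.4% of those below it. Under 11 log2 the counts were 7 of 11 transferases and 0 of 21 other members. Without tumour 1 the members with a 2-fold range fell to 5 of 48, beside 5.75% of all expressed genes, and all 5 were transferases. Without tumour 3 the transferases fell from 8 to 5, beside 9.46% of all expressed genes. Without tumour 4 (9.47% of all expressed genes), as without tumour 1, Gpx3 left the count. The single 4-fold range, that of Gstm2, was lost without tumour 1 or tumour 3, and 3 members reached it after the medians of the arrays were made equal, after quantile normalization and with a pseudocount of 1.

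**Figure D1:**
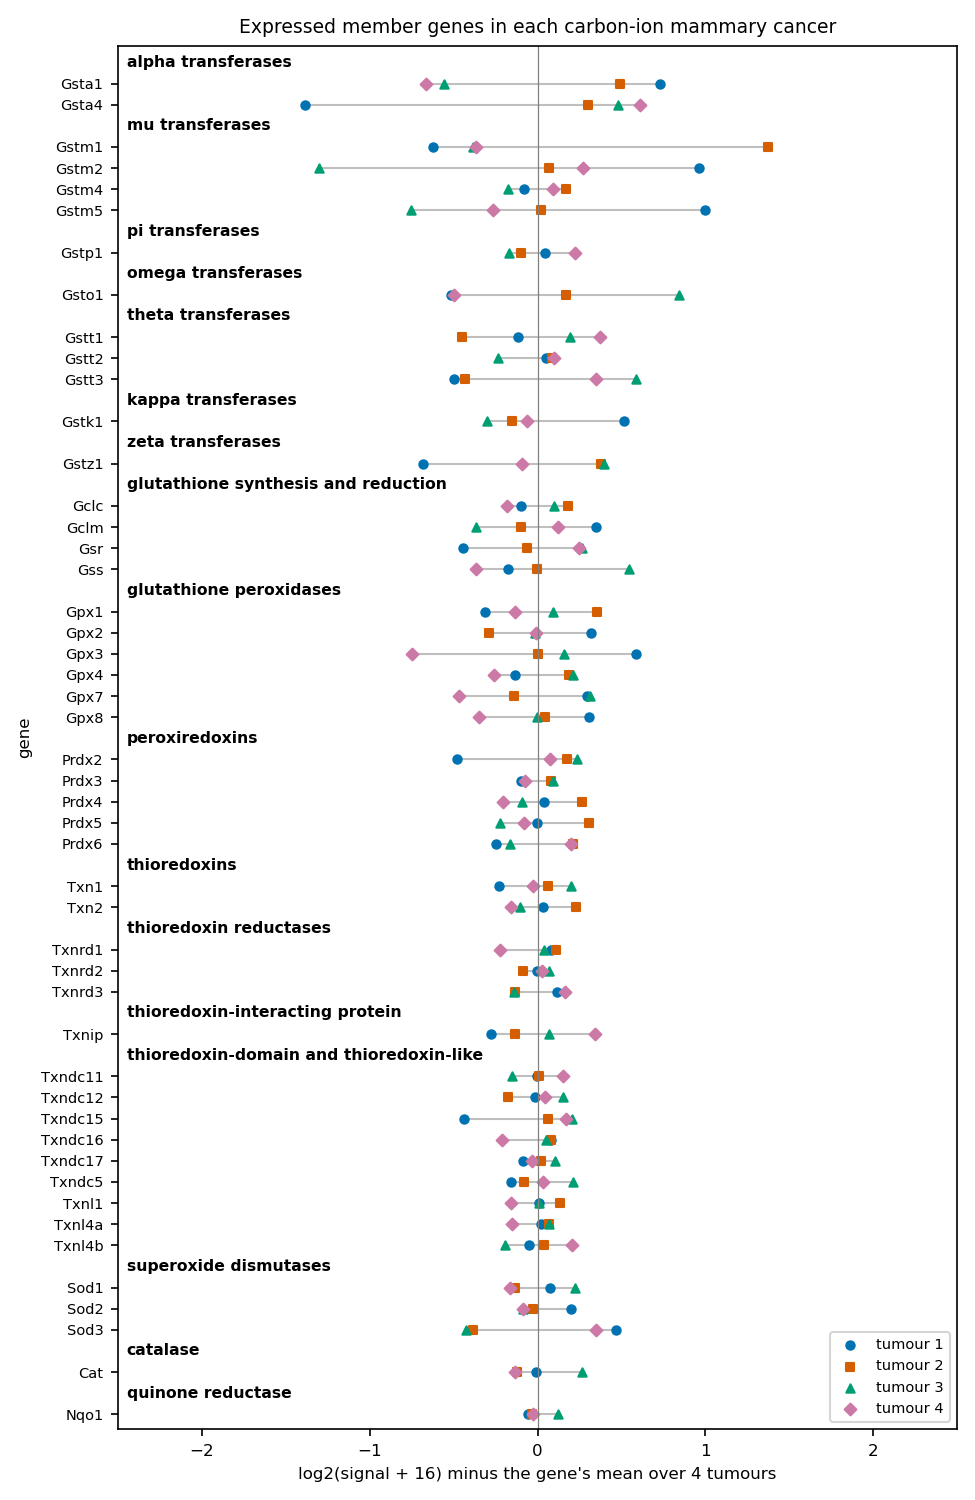
Level of each of the 48 expressed genes in each tumour, as log2(signal + 16) minus the gene's mean over the 4 tumours (horizontal axis), by family; points are single arrays, and a grey line joins the lowest and highest tumour of a gene. The widest lines belong to the alpha and mu transferases, from Gsta1 at 1.40 to Gstm2 at 2.27 log2, while those of the thioredoxin reductases are at most 0.33 log2.

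**Figure D2:**
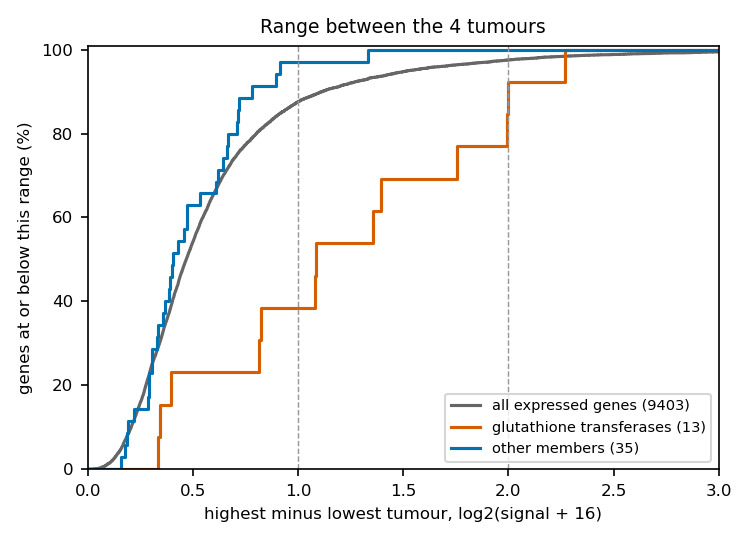
Share of genes (vertical axis, percent) whose highest tumour exceeds the lowest by no more than the value on the horizontal axis, in log2(signal + 16); dashed lines mark 2-fold and 4-fold. The curve of the 13 transferases lies to the right, with a median range of 1.09 log2, against 0.40 for the 35 other members and 0.47 for all expressed genes.

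The members did not rise or fall together in any tumour. The median difference between a tumour and the mean of the other 3 was -0.01, 0.06, 0.09 and -0.06 log2 in tumours 1 to 4 over the expressed members, and -0.04, 0.04, 0.03 and -0.02 over all expressed genes. Members were highest in tumours 1, 2, 3 and 4 in 11, 11, 18 and 8 cases. Over all expressed genes the shares highest were 28%, 26.4%, 24.5% and 21.1%, so 18 of 48 (37.5%) in tumour 3 lay furthest from its share. Members were lowest in 16, 4, 12 and 16 cases, and the shares of all genes were 36.2%, 17.6%, 21.1% and 25.1%. There were 3 members that stood at least 1 log2 from every other tumour: Gsta4 below in tumour 1 (1.02% of all expressed genes), Gstm1 above in tumour 2 (0.255%) and Gstm2 below in tumour 3 (0.415%). Set against only 2 other tumours the count was 5 without tumour 2 and 6 without tumour 4. The share of all genes was taken for the 3 named directions only, so whether the counts of 3, 5 and 6 are high or low is not known.

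Among the alpha class, Gsta4 and Gsta1 ran in opposite directions in tumour 1. Gsta4, whose enzyme clears hydroxynonenal, a toxic product of lipid peroxidation, measured 9.54, 11.23, 11.41 and 11.54 log2 in tumours 1 to 4 (SD 0.93), or signals of 728.7, 2379, 2700 and 2959. Tumour 1 was low, the others lay close together, and the highest signal was 4.06 times the lowest. Gsta1, a transferase with broad substrates that also reduces lipid peroxides, measured 11.46, 11.22, 10.18 and 10.07 (SD 0.71), so that tumours 1 and 2 were high and tumours 3 and 4 low, 2.66-fold in signal between the extremes. In RefSeq Gsta4 lies on another chromosome than Gsta1 and Gsta3. The luminal markers were low in tumour 1 as Gsta4 was, with Prlr at 10.31 against 12.70 to 13.35 and Cldn3 at 9.22 against 11.61 to 11.97, and the part of luminal content in the level of Gsta4 was not tested. Elf5, another luminal gene, was highest in tumour 1, at 11.81 against 11.34 to 11.51.

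The mu class held the widest differences, and its genes did not all share a pattern. These enzymes conjugate epoxides and quinones. Gstm2 measured 10.05, 9.15, 7.78 and 9.35 log2 (SD 0.95), signals of 1044, 553.9, 204.2 and 638.7, and the highest was 5.12 times the lowest. Tumour 3 was low, just under the filter level, so the size of that difference is uncertain. Gstm5 measured 10.09, 9.11, 8.33 and 8.82 (SD 0.74), a ratio of signals of 3.50, and like Gstm2 it was highest in tumour 1 and lowest in tumour 3. Gstm7, which was not expressed by the filter, followed the same extremes at 7.45, 7.18, 6.55 and 7.04. Gstm1 differed, with 7.97, 9.97, 8.21 and 8.23 (SD 0.92): tumour 2 alone was high, at 4.19 times the lowest signal. Gstm4 stayed between 8.74 and 9.08 (SD 0.16), highest in tumour 2 as Gstm1 was and lowest in tumour 3 as Gstm2 was.

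In RefSeq the mu genes lie in 1 cluster in the order Gstm5, Gstm6l, Gstm7, Gstm3, Gstm2, Gstm1 and Gstm4, with 2 other protein-coding genes between Gstm7 and Gstm3. Gstm2, Gstm1 and Gstm4 are thus direct neighbours with 3 different pairs of highest and lowest tumour, while Gstm5, Gstm7 and Gstm2 shared theirs. Genes of this class resemble each other in sequence, and how far their probe sets detect related transcripts was not tested. Some basal genes and the macrophage list had the same extremes as Gstm2 and Gstm5. The basal keratin Krt14 measured 12.39, 11.34, 8.24 and 11.45, and Krt17 and Tp63 had its extremes. Krt5, Acta2, Myh11 and Mylk were instead highest in tumour 4, and Cnn1 in tumour 2. The 9 basal genes together were highest in tumour 4, with sums from 21779 in tumour 3 to 33847. The 9 macrophage genes summed to 14913, 8385, 4371 and 7910, with 7 of the 9 expressed and Cd163 and Itgam under the filter level throughout. The part of either cell type in the mu genes was not tested.

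**Figure D3:**
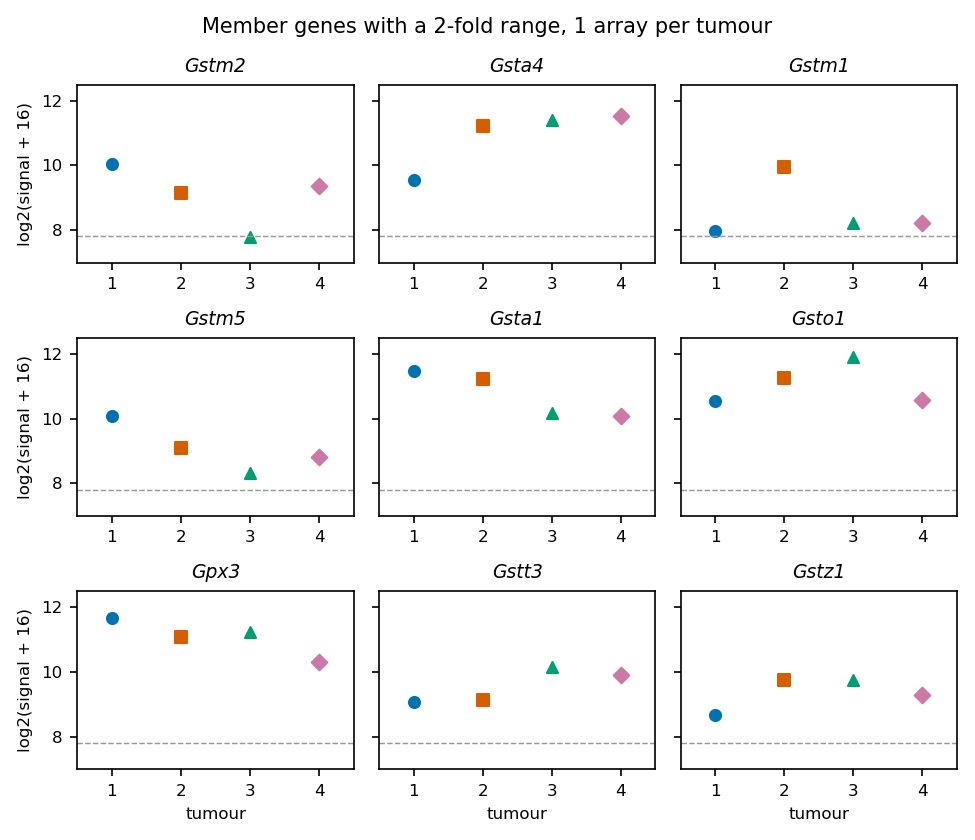
Level of the 9 genes with a 2-fold range, as log2(signal + 16) on the vertical axis, in tumours 1 to 4 on the horizontal axis; each point is 1 array, and the dashed line is the filter level of 7.81. Gsta4 is low in tumour 1 at 9.54, Gstm1 is high in tumour 2 at 9.97, and Gstm2 reaches the filter level in tumour 3 at 7.78.

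The other classes gave smaller differences. Gsto1, an omega enzyme that reduces dehydroascorbate and mixed disulphides, measured 10.56, 11.24, 11.91 and 10.57 log2 (SD 0.65), highest in tumour 3 and nearly equal in tumours 1 and 4, a ratio of signals of 2.57. Gstt3 measured 9.07, 9.14, 10.16 and 9.92 (SD 0.55), with tumours 3 and 4 above tumours 1 and 2. Its neighbour Gstt1 split the tumours the same way with smaller differences, at 8.39, 8.05, 8.69 and 8.87 (SD 0.36). Gstz1, which isomerises maleylacetoacetate in tyrosine breakdown, measured 8.68, 9.75, 9.77 and 9.28 (SD 0.51), lowest in tumour 1 as Gsta4 was. Gstk1, the mitochondrial and peroxisomal kappa enzyme, was highest in tumour 1, at 9.76 against 8.94 to 9.18.

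Gstp1, the pi-class enzyme long used as a marker of early liver tumours in rats, was among the steady transferases. It measured 12.36, 12.22, 12.15 and 12.54 log2 (SD 0.17). Gstt2 was steady too on its brighter probe set, from 8.65 to 8.99, but its other probe set, under the filter, ran from 7.07 to 7.91 and was lowest in tumour 2 where the brighter was lowest in tumour 3.

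At the threshold for a 2-fold range, Gstz1 (1.08 log2) and Gstt3 (1.09) lay just inside, and Gss (0.92) and Sod3 (0.89) just outside. At the threshold for a 4-fold range, Gstm2 (2.27) lay inside, and Gsta4 (1.998) and Gstm1 (1.994) were just outside on the scale with a pseudocount, although their signals differed by 4.06 and 4.19 times.

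Of the 7 transferases that were not expressed by the filter, all 4 tumours were under the filter level for each. Gsta3, Gsta3l1, Gstm3, Gstm6l and Gstp3 were dim, between 4.21 and 6.18 log2. Gsto2 (6.86 to 7.23) and Gstm7 were closer to the level. No range is read from the dim probe sets, whose signals were at most 56.7 where the filter level was 208.5. Gsta2 shares its probe set with Gsta5 and is not named here.

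The genes that make and restore glutathione each varied by less than 2-fold and did not share a direction. Gclc, the catalytic subunit of the rate-limiting ligase, measured 8.85, 9.13, 9.05 and 8.77 log2 (SD 0.17), and its modifier Gclm 9.78, 9.33, 9.07 and 9.56 (SD 0.31). The modifier was highest in tumour 1, where the catalytic subunit lay below tumours 2 and 3. The second probe set of Gclc disagreed, being highest in tumour 1 at 8.65 and lowest in tumour 4 at 8.13, so only the low value in tumour 4 was shared. Gss measured 9.93, 10.10, 10.65 and 9.74 (SD 0.39), with tumour 3 above the rest. Gsr measured 9.06, 9.44, 9.77 and 9.75 (SD 0.33), with tumour 1 below the rest.

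Glutathione peroxidases include the only member outside the transferases with a 2-fold range. Gpx3, the secreted peroxidase of plasma and extracellular fluid, measured 11.65, 11.07, 11.22 and 10.32 log2 (SD 0.56), highest in tumour 1 and lowest in tumour 4, with a ratio of signals of 2.54. Gpx7 and Gpx8, peroxidases of the endoplasmic reticulum, were also lowest in tumour 4: Gpx7 measured 8.86, 8.43, 8.88 and 8.10 (SD 0.38), and Gpx8 10.32, 10.06, 10.01 and 9.66 (SD 0.27). The 6 fibroblast markers were lowest in tumour 4 as well, and their sums of 37745, 29348, 34578 and 11830 fell in the same order of tumours as Gpx3. Of the single markers only Pdgfra had that order. Col1a1, Col1a2 and Col3a1 were highest in tumour 3, and Dcn and Lum were higher in tumour 2 than in tumour 3. All 6 of these markers were expressed, from Col1a1 at 10.98 to 13.25 to Pdgfra at 8.54 to 11.90. The part of fibroblast content in these 3 genes was not tested.

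Of the other peroxidases, Gpx1 and Gpx2 were not lowest in tumour 4. Gpx1, the main cytosolic enzyme, measured 11.88, 12.54, 12.28 and 12.06 (SD 0.29), highest in tumour 2 and lowest in tumour 1. Gpx4, which reduces peroxides within membranes and protects cells from ferroptosis, measured 11.70, 12.02, 12.04 and 11.57 (SD 0.23), highest in tumour 3 and lowest in tumour 4 as Gpx7 was. Its second probe set lay at the filter level (mean 7.80, just under it) and was highest in tumour 1 at 8.22, so the order rests on the bright probe set. Gpx2, the epithelial enzyme, measured 10.49, 9.88, 10.15 and 10.16 (SD 0.25), lowest in tumour 2, and Gpx6 was dim, at 4.41 to 4.65.

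Peroxiredoxins, abundant enzymes that reduce hydrogen peroxide with electrons from thioredoxin, differed little between the cancers. All 5 were expressed, none had a 2-fold range, and their SDs ran from 0.10 (Prdx3, the mitochondrial enzyme, 11.07 to 11.26 log2) to 0.33 (Prdx2). Prdx2 measured 12.26, 12.92, 12.97 and 12.82, so tumour 1 lay 0.56 below the nearest tumour. Red blood cells are rich in Prdx2, and the globin gene Hbb measured 10.74, 10.21, 11.32 and 12.99. The part of red blood cells in the level of Prdx2 was not tested. Prdx6, which also repairs membrane lipids, measured 11.46, 11.92, 11.55 and 11.91 (SD 0.24). Prdx4, the form of the endoplasmic reticulum, and Prdx5 were both highest in tumour 2, at 12.03 and 11.75. Prdx1 shares its probe set with Prdx1l1, is therefore not a member, and is not described. These probe sets are bright, and arrays lose contrast near the top of their range, so differences there may be understated.

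The thioredoxin system was steady too. Txn1, cytosolic thioredoxin, measured 12.64, 12.93, 13.07 and 12.84 log2 (SD 0.18), and Txn2, its mitochondrial counterpart, 10.53, 10.72, 10.39 and 10.34 (SD 0.17). The reductases Txnrd1, Txnrd2 and Txnrd3 had SDs of 0.15, 0.07 and 0.16. Txnrd1 measured 10.67, 10.70, 10.63 and 10.37 on its brighter probe set and 9.91, 9.73, 9.60 and 9.61 on the other, so that tumour 1 exceeded tumour 4 on both. Txnip, an arrestin-like protein that binds thioredoxin and limits glucose uptake, measured 12.76, 12.90, 13.10 and 13.37 (SD 0.27), highest in tumour 4 and lowest in tumour 1.

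Several genes that the name Txn brings in do other work. Txnl4a, a component of the spliceosome, stayed between 10.54 and 10.76, and Txnl4b, also linked to splicing, between 8.09 and 8.49. Txndc5, Txndc11 and Txndc12 belong to the folding enzymes of the endoplasmic reticulum. Of 10 genes with a thioredoxin domain or likeness, 9 were expressed, with ranges from 0.19 (Txndc17) to 0.64 log2 (Txndc15). Txndc15 was low in tumour 1, at 10.59 against 11.09 to 11.24. Txndc9 (7.70 to 7.87) was the member nearest below the filter and Txnrd3 (8.00 to 8.30) the nearest above it. Txnl1 has 4 probe sets: the 2 that were expressed were both lowest in tumour 4, at 11.67 and 11.02, and the dim ones were highest in different tumours, tumour 3 on the first and tumour 1 on the second.

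The superoxide dismutases and catalase each varied by less than 2-fold. Sod3, the extracellular dismutase bound to matrix and vessel walls, varied most, at 9.61, 8.75, 8.71 and 9.49 log2 (SD 0.47), with tumours 1 and 4 above tumours 2 and 3. It did not follow Gpx3, the other secreted enzyme, in tumour 4. Sod1, the cytosolic form, measured 12.82, 12.61, 12.97 and 12.58 (SD 0.18). Sod2, the mitochondrial form, measured 11.36, 11.14, 11.08 and 11.08 (SD 0.14). Catalase, Cat, measured 10.97, 10.86, 11.24 and 10.84 (SD 0.19).

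Nqo1, the quinone reductase often read as a gauge of NRF2 activity, was among the least variable members, at 8.85, 8.87, 9.02 and 8.87 log2 (SD 0.08). Nfe2l2 itself measured 11.64, 11.58, 11.43 and 11.43 (SD 0.10) and Keap1 9.66, 9.81, 9.70 and 9.77 (SD 0.07), although the second probe set of Keap1 ran from 8.58 in tumour 2 to 9.37 in tumour 4. Hmox1 and Srxn1, which NRF2 is known to induce, varied more than Nqo1 and were highest in different tumours, while Abcc1 (SD 0.07) and Slc3a2 (SD 0.11) from the same list were about as steady as Nqo1. Hmox1, haem oxygenase, measured 9.12, 8.60, 8.48 and 9.28 (SD 0.39), and Srxn1, which repairs overoxidised peroxiredoxins, 8.01, 7.41, 8.38 and 7.75 (SD 0.41), under the filter level in tumours 2 and 4. Another probe set of Srxn1, under the filter level throughout, measured 7.59, 7.17, 7.57 and 7.44, so tumour 3 was not its highest. A dimmer one was at most 4.88. Slc7a11, the cystine importer, was under the filter level in all 4 tumours, from 6.21 to 7.69. Among the expressed members for which a promoter was found, the core was present in 3 of 9 with a 2-fold range and in 10 of 32 without one.

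Beyond the members, 99 further genes of the pathway were listed. Of these 94 had a probe set, 79 were expressed, and 14 (17.7%) had a 2-fold range, against the 12.4% of all expressed genes. None of the expressed partners had a 4-fold range. Without tumour 1 the count of 14 fell to 4, beside a fall from 12.4% to 5.75% over all expressed genes. Aldh3a1, listed as regulated by NRF2, was not expressed by its mean, so it is not in these counts. It measured 9.38 in tumour 1, above the filter level, and 6.21, 5.46 and 6.54 in tumours 2 to 4, under it. Among 20 expressed glutathione partners there were 5: Anpep and Dpep1, peptidases of the cell surface that act on glutathione breakdown products, Mgst3, a microsomal transferase, Hagh, a glyoxalase, and Ggt5, which cleaves glutathione conjugates. Anpep measured 9.63, 8.60, 8.11 and 8.24 and Dpep1 8.87, 7.58, 7.33 and 7.57, both highest in tumour 1, with Dpep1 under the filter level elsewhere. A second probe set of Dpep1 was highest in tumour 1 as well (7.26 against 6.24 to 6.70), and the third, at most 5.86, was not. Mgst3 measured 11.18, 11.87, 11.61 and 12.25 and was lowest in tumour 1. Ggt5 measured 7.74, 8.45, 7.62 and 8.69, under the filter level in tumours 1 and 3. Its second probe set ranged from 7.58 to 8.48, and the mean of its probe sets lost the 2-fold range (0.98 log2). Hagh measured 8.82, 9.83, 9.64 and 9.43.

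Among 15 expressed enzymes and transporters that NRF2 regulates, 3 had a 2-fold range. Ephx1, the microsomal epoxide hydrolase, measured 10.87, 9.51, 10.30 and 8.95 (SD 0.85), the widest of the expressed partners, with a ratio of signals of 3.88. Akr1b8, an aldo-keto reductase, measured 8.37, 9.54, 9.16 and 9.54, and Osgin1, an oxidative stress inducible growth inhibitor, 7.28, 8.31, 8.86 and 8.43. Both were lowest in tumour 1, as Gsta4 and Gstz1 were, and Osgin1 was under the filter level there. Of 9 expressed regulators and adaptors, 0 had a 2-fold range.

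The remaining partners with a 2-fold range came from 3 lists. Of 13 genes of selenium supply, needed for the selenocysteine of several peroxidases and of the thioredoxin reductases, the 1 that did was Lrp8. This receptor for selenoprotein P measured 8.28, 8.21, 7.83 and 7.20, under the filter level in tumour 4, while Selenop stayed between 12.76 and 12.88. Of 17 genes of peroxide and thiol repair it was 3. Msrb2, a mitochondrial methionine sulphoxide reductase, was lowest in tumour 1, at 8.98 against 9.99 to 10.27. Ero1a, which oxidises protein disulphide isomerase, measured 10.30, 9.63, 9.91 and 11.04, although its dimmer probe set was about equal in tumours 1 and 4 (7.76 and 7.73), and Cybb, the oxidase subunit of phagocytes, 9.96, 8.94, 8.67 and 9.46, highest in tumour 1 and lowest in tumour 3 as the summed macrophage list was. Among its expressed genes Mrc1 was the exception, at 9.58, 9.70, 9.24 and 9.13. Arrdc2 and Arrdc4, arrestin relatives of Txnip, were 2 of the 5 expressed genes of the last list. Arrdc4 measured 9.50, 8.89, 8.43 and 9.67, and so shared the highest tumour, tumour 4, with Txnip but not the lowest. Arrdc2 measured 9.77, 8.89, 8.65 and 9.51.

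**Figure D4:**
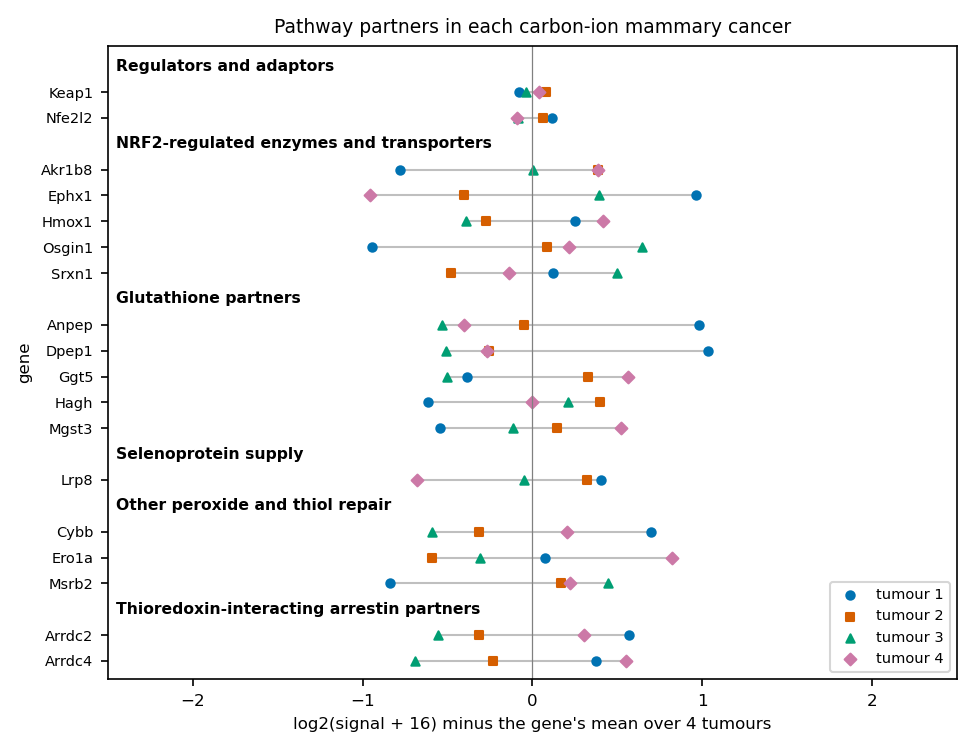
Level of the expressed pathway partners that had a 2-fold range, with Nfe2l2, Keap1, Hmox1 and Srxn1 beside them, as log2(signal + 16) minus the gene's mean over the 4 tumours (horizontal axis), by list; points are single arrays. Keap1 and Nfe2l2 stay within 0.21 log2 between tumours, while Ephx1 spans 1.92 log2 from tumour 4 to tumour 1.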

How the data were processed

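The authors deposited 1 table of linear intensity values, with 31099 probe sets on each of 4 one-colour arrays. Per the labels' protocols, 8 µg of total RNA was primed at the poly(A) tail and labelled with biotin. The software and the background correction are not stated in the labels. The deposited intensities had been scaled between arrays, since their mean after trimming 2% from each end was about 500 on each, and no further scaling was applied. Intensities were transformed as log2(value + 16) with numpy 2.4.6 and pandas 2.3.3. The platform annotation names 1 gene for 20826 probe sets, and 436 that name several were left out. The probe set of highest mean stands for a gene. The counting was tested on simulated data. In full the text gives members with a 2-fold range, the member of highest mean in each family and anchor genes. It gives the other members by value or range, and the partners with a 2-fold range and 5 anchors. Aldh3a1, Selenop and the single cell type markers given with values were picked after their values were seen. Members and lists were chosen with earlier results of these data known, and the splits at 11 log2 and into transferases and other members were made after the values were seen. Alternatives varied the array scaling, pseudocount, probe set rule, filter and tumours. Precision is limited by the number of arrays, and detection calls were not used.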

Additional observations from a re-analysis of the deposited data

Results flagged for a closer look

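In 6 of 66 genes examined, 1 tumour stood so far from the others that its gap to the nearest tumour exceeded the share of the range that Dixon's criterion allows for 4 samples. Chance flags about 1 in 20 groups, and the same criterion flagged 529 of all 9403 expressed genes (5.63%). Of the 48 expressed members it was 5 (10.4%), and of 18 named partners 1. The partners are a selected set, since 14 of the 18 were named for their 2-fold range. For Gsta4 tumour 1 was lowest, with a gap of 0.843 of the range, and for Gstm1 tumour 2 was highest, with 0.872. In the other 3 members the whole range was small. Nqo1 was highest in tumour 3 (0.842 of a range of 0.18 log2), Gstt2 lowest in tumour 3 (0.851 of 0.33) and Txndc16 lowest in tumour 4 (0.883 of 0.29). The second probe set of Gstt2 was lowest in tumour 2. Among the partners Dpep1 was highest in tumour 1 (0.837 of 1.54), with the other tumours under the filter level. Gsta4, Gstm1, Nqo1 and Txndc16 have a single named probe set.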

How the results depend on the processing

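All 9 members with a 2-fold range kept it after the medians of the arrays were made equal, after quantile normalization and with a pseudocount of 1. With a pseudocount of 64, 8 did. Taking the mean of a gene's probe sets or leaving out the filter could not change these 9, since each has 1 probe set and had passed the filter. Equal medians removed a difference of up to 0.13 log2 between arrays and gave 2 members outside the transferases (Gpx3 and Gss). It moved the median shift of members to -0.10, 0.13, 0.17 and -0.13 in tumours 1 to 4, while all expressed genes moved to -0.13, 0.10, 0.11 and -0.08. Under it, quantile normalization and a pseudocount of 1, 3 members had a 4-fold range. With the brighter 25% of probe sets, 31 members remained, of which 5 had a 2-fold range (4 of 5 transferases), beside 8.97% of all genes that remained. Of these members 0 had a 4-fold range and 1 stood apart in a tumour, and 5 partners had a 2-fold range. Among members under 11 log2, an alternative chosen after seeing the data, 0 members outside the transferases had one. Leaving out each tumour in turn gave 5 to 8 members with a 2-fold range, 0 to 1 with a 4-fold range and 3 to 6 apart in a tumour. It gave 5 to 8 transferases, 0 to 1 other members and 4 to 11 partners with a 2-fold range. The share of all expressed genes with one was 5.75%, 10.2%, 9.46% and 9.47% without tumours 1, 2, 3 and 4. The median shift in tumour 3 ran from -0.0027 to 0.11, turning sign without tumour 4. Of 494 ranges of single genes under the alternatives, 462 moved by less than the gene's SD. That count is a weak check, because many of these ranges could not move. A range is unchanged without the filter, with the probe set mean of a gene with 1 expressed probe set, and when a tumour between the extremes is left out. The other 32 moved by more, 13 of them without tumour 1. No paired analysis was possible because all samples form 1 group. Signal over background is unknown here, which leaves dim probe sets the least certain.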
